A study of Mus musculus with 46 samples.

Results

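The genes described are the receptors that bind the Fc portion of IgG in the mouse and the proteins they work with: the activating receptors Fcgr1, Fcgr3 and Fcgr4, the inhibitory receptor Fcgr2b, the signalling chain Fcer1g and the neonatal Fc receptor Fcgrt. They are 6 of the 48795 genes in a table of RNA-seq values, taken by name with earlier results of these data known, and all 6 were found and passed the filter on low values in every comparison. The table covers 46 samples of bulk RNA from MC-38, a mouse colon carcinoma line that grows as a tumor under the skin of C57BL/6 mice. Values are FPKM, in which the fragment count of a gene is scaled to transcript length and to how many fragments the library mapped, so levels of different genes are compared per length.

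The antibody study holds 3 cultures of MC-38 cells, 3 baseline tumors taken at randomization on day 7 after implantation, and 4 groups of 5 tumors from WT mice. These 4 groups had isotype control antibody or the PD-1 antibody muDX400 (PD-1 Ab, 5 mg/kg), as 1 dose with tumors taken on day 11 after implantation (4 days of treatment in the labels) or as 2 doses with tumors taken on day 15 (8 days of treatment). The PD-1cKO study holds 10 tumors from mice labelled PD-1cKO and 10 from mice labelled WT, all given tamoxifen (40 mg/kg on 5 days). PD-1cKO mice carried creERT2 at the Rosa26 locus and Pdcd1 fl/fl, with loxP sites around exons 2 and 3 of Pdcd1, the gene of PD-1, so that tamoxifen deletes these exons in any cell with active Cre, while their littermate controls had tamoxifen alone. The labels and the account of the bulk sequencing place these tumors at day 28, although the methods text gives an earlier day. No antibody was given in the PD-1cKO study. The comparison of antibody with deletion is of interest for Fc receptors because an antibody carries an Fc portion that these receptors can bind. A deleted gene carries none. Isotype control antibody has an Fc portion as well, so PD-1 Ab against isotype control does not compare its presence with its absence. Whether the Fc portions of muDX400 and of the isotype control bind these receptors is not given in the sources used here. The background of the study includes reports that macrophages take PD-1 antibody off T cells through Fc gamma receptors.

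Fc gamma receptors sit on the surface of macrophages, monocytes, neutrophils, natural killer cells and B cells and read IgG that has coated a target. Fcgr1, Fcgr3 and Fcgr4 need the chain Fcer1g, whose immunoreceptor tyrosine-based activation motif is phosphorylated by Src-family kinases and then recruits Syk. Fcgr2b carries an inhibitory motif in its own tail and recruits the phosphatase SHIP1 (Inpp5d), so that a cell's response to an immune complex depends on the balance of the activating receptors and Fcgr2b. Fcgrt is the heavy chain of FcRn, which pairs with B2m and returns IgG from endosomes to the cell surface. Fcer1g also serves the high-affinity IgE receptor on mast cells and basophils, and Fcgr1 and Fcgr4 are known as genes that interferon gamma can raise.

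On GRCm38, 4 of the 6 genes lie within 275.7 kb of chromosome 1. Fcgr2b spans bases 170958617 to 170976547 (minus strand), Fcgr4 spans 171018920 to 171029761 (plus strand), Fcgr3 spans 171051174 to 171064935 (minus strand) and Fcer1g spans 171229572 to 171234365 (minus strand). Fcgr1 lies on chromosome 3 from 96282909 to 96293969 and Fcgrt on chromosome 7 from 45092990 to 45103851, both on the minus strand. A small RNA gene on the same strand lies within Fcgr3 (Mir6546) and within Fcgr4 (Gm26110), and an antisense gene overlaps Fcgr2b (Gm38204) and Fcgrt (Gm45669). The library kit keeps the strand, but whether the quantification used it is not given in the sources used here, so reads from Fcgr2b or Fcgrt and its antisense partner may not be told apart.

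The promoters of Fcgr4 and Fcgr1 are shown because these were the members with the largest changes under PD-1 Ab on day 15 and because genes of the interferon gamma response moved in the same tumors. Each window is taken from RefSeq (GRCm38.p6), runs from 250 bases before to 50 bases after the start of the gene on its own strand, and has the letters of a searched motif in capitals. The motifs were GAS (TTCNNNGAA), ISRE (GAAA, any 2 bases, GAAA) and PU.1 (GAGGAAGT), searched on both strands. They do not overlap in the windows shown. The window of Fcgr4 is chr1:171018676-171018975 on the plus strand, where the capitals mark ISRE letters that begin 73 bases before the start and PU.1 letters read from the other strand that begin 24 bases before it. The window of Fcgr1 is chr3:96293920-96294219 on the minus strand, where the capitals mark GAS letters that begin 109 bases before the start.
Fcgr4: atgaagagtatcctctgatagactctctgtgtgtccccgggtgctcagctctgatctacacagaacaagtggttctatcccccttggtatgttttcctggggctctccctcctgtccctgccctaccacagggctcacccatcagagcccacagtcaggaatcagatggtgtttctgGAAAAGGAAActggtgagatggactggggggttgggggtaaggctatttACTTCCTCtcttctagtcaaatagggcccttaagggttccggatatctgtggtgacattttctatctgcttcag
Fcgr1: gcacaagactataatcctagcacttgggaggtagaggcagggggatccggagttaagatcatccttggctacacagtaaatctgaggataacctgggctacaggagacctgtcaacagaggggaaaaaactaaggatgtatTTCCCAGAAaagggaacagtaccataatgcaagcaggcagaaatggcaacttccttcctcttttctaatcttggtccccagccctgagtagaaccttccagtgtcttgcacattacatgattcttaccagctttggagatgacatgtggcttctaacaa
None of the 3 motifs was found in the windows of Fcgr3, Fcgr2b, Fcer1g and Fcgrt. Of 32851 promoter windows of the same length, 8.3% held GAS letters, 3.44% held ISRE letters and 3.2% held PU.1 letters, so such matches are common and mark no site.

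Fcgr2b and Fcgr3 share sequence, which limits how well reads can be split between them. In the transcripts of GENCODE M21, 166 of 1733 stretches of 50 bases of Fcgr3 (9.579%) also occur in Fcgr2b, whereas none of the stretches of Fcgr1, Fcgr4, Fcer1g or Fcgrt occurs in another gene. The longest run shared by their coding sequences is 129 bases long, in exons 5 and 6 of Fcgr2b-204 (chr1:170966674-170968081, minus strand) and exons 3 and 4 of Fcgr3-201 (chr1:171054167-171057792, minus strand), in the part that codes for the ectodomain.
Fcgr2b and Fcgr3: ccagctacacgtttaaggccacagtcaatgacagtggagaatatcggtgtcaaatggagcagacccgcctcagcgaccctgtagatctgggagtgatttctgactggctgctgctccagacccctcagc
Reads of 50 bases from this run cannot be assigned to 1 of these 2 genes by sequence alone, and the values of Fcgr2b and Fcgr3 are uncertain to that extent.

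Facts of the whole series that touch these genes are few. Values were deposited as FPKM, so the depth of each sample is unknown and the precision given is the spread between samples. The labels do not name the mice, while the study's legend to its expression heat maps gives each row as 1 animal. P-values set a difference between groups against the spread between samples, which limma partly shares across genes. In tumors of the PD-1cKO study, short noncoding RNAs held 30.2% to 66.5% of the FPKM of a sample, against at most 0.0817% in the antibody study, so levels of the 2 studies are set side by side and never tested against each other. Within the PD-1cKO study the median share was 54.0% in tumors labelled PD-1cKO (31.1% to 66.5%) and 45.3% in WT tumors (30.2% to 54.6%). Values without further scaling carry this difference, and its part in the changes between these 2 groups was not tested. In isotype control replicate 1 of day 11, mitochondrial genes held 54.6% of the FPKM. The targeted gene Pdcd1 had a median of 8.29 FPKM in tumors labelled PD-1cKO and 3.01 FPKM in WT tumors. A value for the whole gene cannot separate the deleted exons from the rest, so it does not check the label, and the group keeps its labelled name. The epithelial markers Krt8, Krt18, Epcam and Krt20 summed to only 0.583 to 0.747 FPKM in the cultured MC-38 cells.

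The 6 genes were near 0 in the cultured tumor cells except Fcgrt, and all were measured in every tumor. In the 3 cultures, mean levels were 0.0316 FPKM for Fcgr4, 0.0370 for Fcgr1, 0.255 for Fcgr3, 0.00350 for Fcgr2b and 0.0698 for Fcer1g, whereas Fcgrt stood at 1.96, 2.32 and 2.01 FPKM. Isotype control tumors of day 15 held much more of each, and limma put the log2 differences on the log2(FPKM + 0.1) scale between 3.18 for Fcgrt (SE 0.15, adjusted p = 2.19e-07) and 10.01 for Fcer1g (SE 0.30, adjusted p = 1.05e-08). All 6 passed an adjusted p of 0.01, where 37.0% of the genes tested passed. For the 5 genes near 0 in culture, the added 0.1 FPKM sets the size of this difference. In these bulk samples, fewer cells of a type and less RNA per cell cannot be told apart. The leukocyte marker Ptprc was at most 0.0078 FPKM in culture, and the 10 markers of macrophages and monocytes summed to 9.05 to 10.6 FPKM there and to 1172 to 1606 FPKM in isotype control tumors of day 15.

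**Figure D1:**
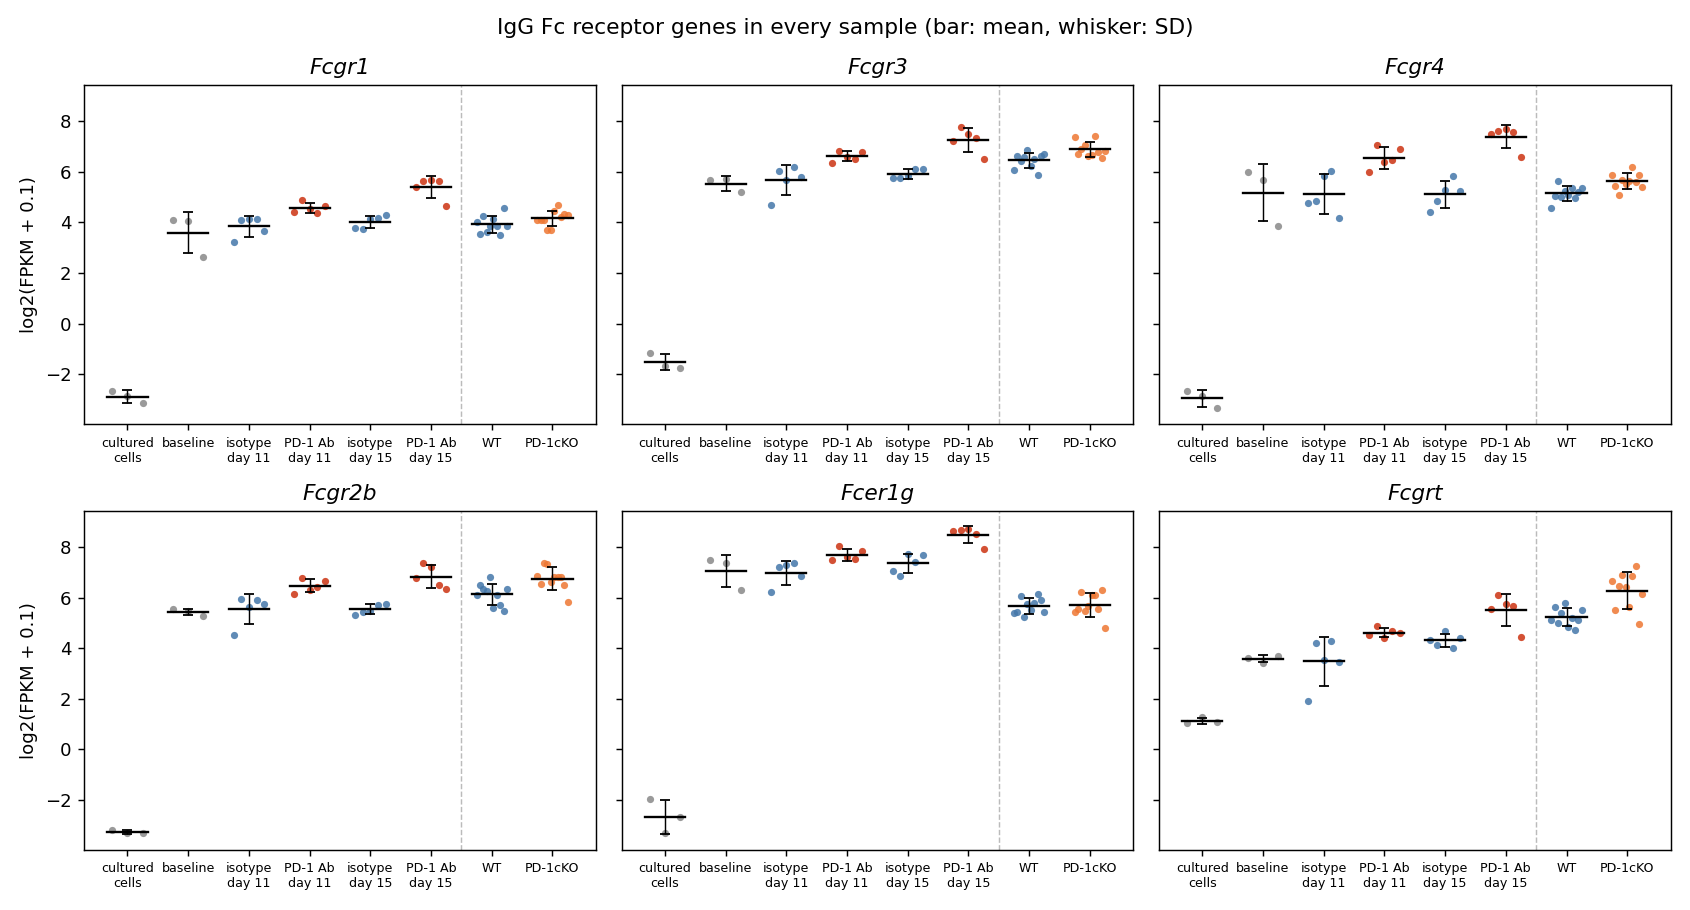
Level of each of the 6 genes as log2(FPKM + 0.1) on the y axis, in each sample by group on the x axis, 1 panel a gene, with points for single samples, bars for group means, whiskers for SD and a dashed line between the 2 studies. The PD-1 Ab-treated tumors of day 15 sit above the isotype control tumors of day 15 in all panels but Fcgrt, where 1 of 5 overlaps, and the cultured cells are lowest in every panel.

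The order of the 6 mean levels per length was the same in the baseline tumors and both isotype control groups, except that Fcgr1 and Fcgrt changed places. Fcer1g, the shared chain, had the highest mean in isotype control tumors of day 15 (167 ± 42.9 FPKM, SD, n = 5), followed by Fcgr3 (60.3 ± 7.90), Fcgr2b (46.7 ± 6.19), Fcgr4 (36.7 ± 13.5), Fcgrt (19.96 ± 3.62) and Fcgr1 (16.3 ± 2.70). In tumors of the PD-1cKO study the order differed. Fcgr3 was highest in WT tumors (88.9 ± 17.7 FPKM, SD, n = 10), then Fcgr2b (72.2 ± 20.9), Fcer1g (51.6 ± 11.2), Fcgrt (38.3 ± 9.52), Fcgr4 (35.9 ± 7.29) and Fcgr1 (15.5 ± 3.82). The transcripts of Fcgr4 and Fcgr1 thus had like mean FPKM in the control tumors of both studies, while the mean of Fcer1g was lower in the PD-1cKO study and that of Fcgrt higher. These last statements set values side by side and rest on no test.

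Over the groups of the antibody study, the levels of Fcgr1, Fcgr3, Fcgr4, Fcgr2b and Fcer1g in baseline tumors and in both isotype control groups lay closer together than the larger SD of each neighbouring pair. For Fcgrt the mean was 12.8 FPKM in isotype control tumors of day 11 and 19.96 on day 15, a gap beyond the larger SD of 6.43. Baseline tumors against isotype control tumors of day 15 gave no member at an adjusted p under 0.01 (limma), against 0.628% of genes tested. Fcgrt came nearest with a log2 difference of -0.72 (SE 0.15, adjusted p = 0.0386), and its 3 baseline tumors at 12.2, 10.7 and 12.8 FPKM were all below the 5 isotype control tumors at 20.1, 17.3, 25.2, 15.9 and 21.2. For this comparison the share of all genes with groups that do not overlap was not computed. Fcgr4 was uneven at baseline, with 62.9, 50.5 and 14.6 FPKM, a range that covers all but 1 of the 10 isotype control tumors.

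All 6 genes rose under PD-1 Ab on day 15, and Fcgr4 had the largest change of the 6. Of the 6, all passed an adjusted p of 0.01 with a change of at least 2-fold in limma, where 8.25% of the 15062 genes tested passed (6.69% as higher) and 5.30% passed with 2-fold. The median log2 difference of all genes tested was -0.04.

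Among the activating receptors, Fcgr4, which monocytes, macrophages and neutrophils carry, stood at 21.2, 28.3, 38.7, 57.0 and 38.04 FPKM in the 5 isotype control tumors of day 15. In the 5 PD-1 Ab-treated tumors it stood at 178, 195, 207, 190 and 95.5 FPKM. The groups did not overlap, and the lowest treated tumor, replicate 5, was still above the highest control. The log2 difference was 2.26 (SE 0.27, 95% interval 1.68 to 2.85, adjusted p = 0.000885), rank 190 from the top of all genes tested. Without replicate 5 of the treated group it was 2.47.

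Fcgr1, the high-affinity receptor that binds IgG even without a complex, was at 13.7, 13.2, 17.4, 18.0 and 19.3 FPKM under isotype control. Under PD-1 Ab it was at 42.7, 50.0, 51.0, 49.7 and 24.7 FPKM. Here too replicate 5 was the lowest treated tumor and the groups did not overlap. The log2 difference was 1.38 (SE 0.20, adjusted p = 0.00128).

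Fcgr3, the low-affinity activating receptor that natural killer cells also carry, was at 53.2, 53.2, 57.5, 68.3 and 69.1 FPKM under isotype control. PD-1 Ab-treated tumors had 149, 216, 178, 161 and 91.5 FPKM, again all above the controls. The log2 difference was 1.35 (SE 0.19, adjusted p = 0.00129).

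The inhibitory receptor Fcgr2b was higher as well. Its values were 40.0, 43.2, 43.7, 52.5 and 54.0 FPKM under isotype control and 108, 163, 147, 90.7 and 80.3 FPKM under PD-1 Ab, with no overlap. The log2 difference of 1.29 (SE 0.19, adjusted p = 0.00135) was close in size to those of Fcgr1 and Fcgr3.

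The chain Fcer1g rose by 1.14 on the log2 scale (SE 0.20, adjusted p = 0.00306). It stood at 132, 116, 212, 168 and 207 FPKM under isotype control and at 395, 411, 417, 367 and 239 FPKM under PD-1 Ab. The groups did not overlap, although the gap between the highest control and treated replicate 5 was small. Leaving out isotype control replicate 1, or PD-1 Ab replicate 1, 2 or 3, put its adjusted p between 0.0101 and 0.0120, and fitting without a filter on low values put it at 0.0109.

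Fcgrt, which salvages IgG, had the least firm change. It was at 20.1, 17.3, 25.2, 15.9 and 21.2 FPKM under isotype control and at 46.6, 69.0, 53.1, 51.3 and 21.7 FPKM under PD-1 Ab. Replicate 5 fell within the control range, so 4 of 5 treated tumors lay above every control. The log2 difference of 1.20 (SE 0.26, adjusted p = 0.00847) passed, but median-of-ratios scaling, under which 7.12% of genes passed, gave an adjusted p of 0.0115, and leaving out any 1 of the 10 tumors except treated replicate 5 gave 0.0110 to 0.0278 for Fcgrt. Thus 5 of 6 genes had groups that did not overlap, where 9.23% of all genes tested did so in this direction. With the replicate number as a block, which does not pair these tumors, 3 of 6 passed.

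Markers of several cell types moved in the same tumors. Of the 10 markers of macrophages and monocytes, 8 rose (all but Mertk and Ccr2), and their sum was 1172 to 1606 FPKM under isotype control and 1932 to 4881 under PD-1 Ab. The 4 T cell markers all rose, with sums of 5.08 to 10.9 and 19.99 to 81.4 FPKM. Of 7 neutrophil markers 5 were tested, of which Csf3r rose and S100a8 fell, with sums of 6.79 to 17.1 and 9.58 to 32.1 FPKM. None of 3 natural killer cell markers tested passed, with sums of 1.35 to 2.43 and 2.11 to 4.94 FPKM for all 4. None of the B cell markers passed either, with sums of 2.002 to 5.78 and 1.36 to 18.9 FPKM. Of the remaining lists, none of 4 plasma cell and 3 epithelial markers tested passed, while 2 of 5 dendritic cell markers (Xcr1 and Clec9a) and 1 of 4 endothelial markers (Pecam1) rose. The part of these cells in the change of the Fc receptors was not tested.

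On day 11, after 1 dose, no member passed, and no gene of the 14556 tested did (percent called 0, limma), while 6.15% of genes had an unadjusted p under 0.05. The values nevertheless lay higher under PD-1 Ab. Fcgr4 was at 27.2, 28.6, 56.2, 65.5 and 17.8 FPKM under isotype control and at 63.0, 134, 83.7, 88.5 and 120 FPKM under PD-1 Ab, with 4 of 5 treated tumors above every control. Its log2 difference was 1.44 (SE 0.36, adjusted p = 0.276).

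Fcgr1 was at 9.16, 16.9, 17.3, 17.5 and 12.5 FPKM under isotype control of day 11 and at 21.4, 29.8, 23.1, 20.8 and 25.0 FPKM under PD-1 Ab, with a log2 difference of 0.74 (SE 0.23, adjusted p = 0.464). Fcgr3 was at 25.5, 65.4, 50.6, 72.0 and 56.0 FPKM against 81.5, 114, 94.6, 91.5 and 111, with a log2 difference of 0.94 (SE 0.27, adjusted p = 0.392). For both receptors each treated tumor was above each control.

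Fcgr2b was at 22.6, 61.6, 49.8, 59.8 and 53.0 FPKM against 70.7, 110, 79.1, 85.4 and 100, with a log2 difference of 0.91 (SE 0.27, adjusted p = 0.439). Fcer1g was at 74.1, 146, 158, 164 and 115 FPKM against 179, 259, 194, 182 and 231, with a log2 difference of 0.71 (SE 0.23, adjusted p = 0.508). Fcgrt was at 3.62, 18.3, 11.5, 19.5 and 10.8 FPKM against 22.8, 29.2, 20.8, 25.4 and 24.2, with a log2 difference of 1.14 (SE 0.39, adjusted p = 0.569). In all, 5 of 6 genes had groups that did not overlap on day 11, where 3.59% of genes tested did so in this direction. Isotype control replicate 1, the library with the mitochondrial share of 54.6%, was the lowest control for Fcgr1, Fcgr3, Fcgr2b, Fcer1g and Fcgrt. Without it the log2 differences of the 6 genes were 0.52 (Fcer1g) to 1.35 (Fcgr4), with adjusted p between 0.0349 (Fcgr3) and 0.101 (Fcgr4). Over all genes the median log2 difference was 0.26 without further scaling and 0.01 with median-of-ratios scaling, and the difference of Fcgr2b under that scaling was 0.66.

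In the PD-1cKO study, 2 of the 6 genes were higher in tumors labelled PD-1cKO at an adjusted p under 0.01 (limma), Fcgrt and Fcgr4. Of the 15075 genes tested, 21.3% passed and 8.78% passed as higher. Over all genes the median log2 difference was -0.20, or -0.04 with median-of-ratios scaling, under which 4 of 6 members and 23.2% of genes passed.

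Fcgrt had the largest difference. Its lowest, median and highest values were 25.9, 35.7 and 55.6 FPKM in the 10 WT tumors and 30.7, 86.6 and 152 FPKM in the 10 tumors labelled PD-1cKO. Of the latter, 7 lay above every WT tumor. The log2 difference was 1.05 (SE 0.24, adjusted p = 0.00290).

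Fcgr4 ran from 23.3 through a median of 35.1 to 50.2 FPKM in WT tumors and from 33.5 through 48.8 to 72.3 FPKM in tumors labelled PD-1cKO, 4 of which lay above every WT tumor. The log2 difference was 0.48 (SE 0.14, 95% interval 0.20 to 0.77, adjusted p = 0.00920). This call is a thin one, since leaving out 1 tumor at a time ended it for 7 of the 10 tumors labelled PD-1cKO (replicates 1, 4, 5, 6, 7, 8 and 9) and for 9 of the 10 WT tumors (all but replicate 3), with adjusted p of 0.0113 to 0.0191.

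Fcgr2b had 44.6, 72.5 and 113 FPKM as the lowest, median and highest value in WT tumors and 57.3, 113 and 166 FPKM in tumors labelled PD-1cKO, 5 of which exceeded every WT tumor. Its log2 difference was 0.63 (SE 0.19, adjusted p = 0.0113), just short of the limit, and it passed without PD-1cKO replicate 9 or 10 or WT replicate 5 (adjusted p = 0.00863, 0.00333 and 0.00653 for Fcgr2b). Fcgr3 had 58.1, 93.6 and 115 FPKM against 92.8, 111 and 172 FPKM, with 4 tumors above every WT tumor. Its log2 difference was 0.44 (SE 0.14, adjusted p = 0.0166), or 0.48 with an adjusted p of 0.00902 without PD-1cKO replicate 9.

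Fcgr1 and Fcer1g differed least. Fcgr1 had 11.2, 14.5 and 23.6 FPKM in WT tumors against 12.8, 17.7 and 25.8, with a log2 difference of 0.23 (SE 0.15, 95% interval -0.07 to 0.53, adjusted p = 0.189). Fcer1g had 37.6, 49.3 and 70.1 FPKM against 27.8, 48.6 and 77.7, with a log2 difference of 0.05 (SE 0.17, 95% interval -0.31 to 0.40, adjusted p = 0.839). For Fcer1g the groups overlapped across almost their whole range.

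Numbers in the labels split these 20 tumors into 3 runs of consecutive identifiers, which divide the groups unevenly. Of the tumors labelled PD-1cKO, 7 are in the first run, 1 in the second and 2 in the third, whereas WT tumors number 0, 9 and 1. Within the second run, Fcgrt was 152 FPKM in the PD-1cKO tumor and 25.9 to 55.6 FPKM in the WT tumors, and Fcgr4 was 47.7 FPKM against 23.3 to 50.2. Within the third run, Fcgrt was 30.7 and 70.1 FPKM against 44.9 in the WT tumor, and Fcgr4 was 42.1 and 59.1 FPKM against 40.9. With the run as a covariate no member passed (limma), with a log2 difference of 1.20 for Fcgrt (adjusted p = 0.0434) and 0.38 for Fcgr4 (adjusted p = 0.248). What the runs stand for is not given in the labels, and run and genotype label cannot be told apart for the first run.

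Cell markers moved here as well. Of the 10 markers of macrophages and monocytes 7 rose, and their sum was 1075 to 1822 FPKM under WT and 1756 to 5960 FPKM under PD-1cKO. All 4 T cell markers rose, with sums of 6.50 to 23.2 and 16.1 to 57.4 FPKM. Of 5 neutrophil markers tested, S100a8 and Csf3r rose, with sums of 4.805 to 15.9 and 7.24 to 323 FPKM. None of the markers of natural killer cells (2 tested), B cells (1), plasma cells (4), dendritic cells (4), mast cells and basophils (3) or epithelium (3) passed, and 1 of 5 endothelial markers, Stab2, rose. Their part in the difference was not tested.

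Set against each other, the antibody and the deletion differed for Fcgr4. The contrast of the PD-1 Ab effect on day 15 minus the PD-1cKO effect, fitted over these 4 groups, was 1.78 for Fcgr4 (SE 0.28, 95% interval 1.20 to 2.35, limma adjusted p = 0.00233), and it was the only member among the 0.0975% of genes that passed. The contrasts of the other members were 1.15 for Fcgr1 (SE 0.25, adjusted p = 0.0287), 1.10 for Fcer1g (SE 0.29, adjusted p = 0.0698), 0.91 for Fcgr3 (SE 0.25, adjusted p = 0.0806) and 0.66 for Fcgr2b (SE 0.30, adjusted p = 0.290). Fcgrt had a contrast of 0.15 (SE 0.40, 95% interval -0.67 to 0.97, adjusted p = 0.870), which turned to -0.07 under median-of-ratios scaling. The 2 effects come from different studies, days and library makeups, which cannot be told apart from antibody against deletion. Isotype control tumors also received antibody, so the contrast does not isolate an Fc portion. The contrast of Fcgr4 passed under median-of-ratios scaling (1.56, adjusted p = 0.00985, with 0.0552% of genes) and did not pass under upper-quartile scaling (1.51, adjusted p = 0.0164), with the run as a covariate (1.88, adjusted p = 0.0768), with all tumor groups in 1 fit (1.78, adjusted p = 0.0328), or without PD-1 Ab replicate 3 of day 15 (1.70, adjusted p = 0.0115). Without PD-1 Ab replicate 5, Fcgr1 passed too (1.34, adjusted p = 0.00276).

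**Figure D2:**
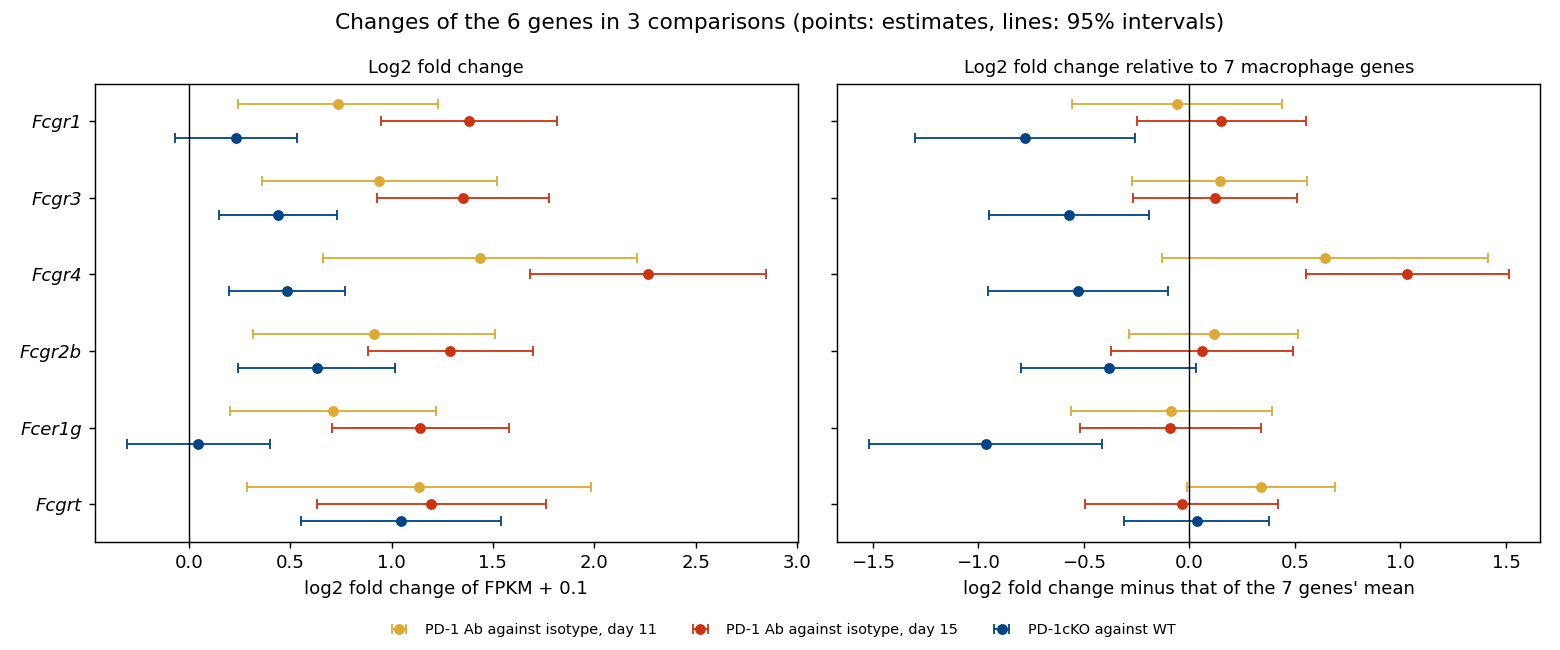
Log2 fold changes of FPKM + 0.1 on the x axis for the 6 genes on the y axis (left), and the same relative to 7 macrophage genes (right), with points for limma estimates and lines for 95% intervals in 3 comparisons by color. Fcgr4 has the largest value on day 15 on the left (2.26) and on the right (1.03), and Fcgrt the largest for PD-1cKO against WT on the left (1.05).

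The balance of activating to inhibitory receptors was read as the ratio of FPKM to that of Fcgr2b in the same tumor, which no scaling of the sample can change. The ratio of Fcgr4 to Fcgr2b was 0.531, 0.656, 0.884, 1.09 and 0.705 in isotype control tumors of day 15 and 1.65, 1.20, 1.41, 2.10 and 1.19 in PD-1 Ab-treated tumors. Each treated tumor was above each control, with means of 0.772 ± 0.216 and 1.51 ± 0.379 (SD, n = 5). The share of all genes whose ratio to Fcgr2b does not overlap was not computed, here or for the ratios below. With every gene taken relative to Fcgr2b of its tumor and fitted in limma, the log2 difference of Fcgr4 was 0.97 (SE 0.26, adjusted p = 0.00142). In that fit 77.3% of the genes passed, nearly all as lower than Fcgr2b, and 0.976% passed as higher.

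The other activating receptors did not differ from Fcgr2b beyond the error. The ratio of Fcgr1 to Fcgr2b was 0.349 ± 0.0330 under isotype control and 0.381 ± 0.10 under PD-1 Ab, with a log2 difference of 0.09 (SE 0.24, 95% interval -0.41 to 0.59). The ratio of Fcgr3 to Fcgr2b was 1.29 ± 0.0378 and 1.36 ± 0.249, with a log2 difference of 0.06 (SE 0.23, 95% interval -0.42 to 0.54). Since Fcgr3 and Fcgr2b share reads, their ratio may be drawn toward 1 value in all samples. The ratio of the summed activating receptors to Fcgr2b was 2.20, 2.19, 2.60, 2.73 and 2.34 under isotype control and 3.41, 2.83, 2.97, 4.42 and 2.64 under PD-1 Ab, with 4 of 5 treated tumors above every control.

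On day 11 the ratio of Fcgr4 to Fcgr2b was 1.20, 0.463, 1.13, 1.09 and 0.335 under isotype control and 0.891, 1.22, 1.06, 1.04 and 1.20 under PD-1 Ab. The groups overlapped widely, with a log2 difference of 0.53 (SE 0.32, adjusted p = 0.162) where 34.7% of genes passed and 0.110% as higher. In the PD-1cKO study the ratio of Fcgr4 to Fcgr2b had a median of 0.546 under WT (0.336 to 0.823) and of 0.470 under PD-1cKO (0.202 to 0.734). The log2 differences relative to Fcgr2b were -0.15 for Fcgr4 (95% interval -0.64 to 0.35), -0.19 for Fcgr3 (-0.63 to 0.25) and -0.40 for Fcgr1 (-0.95 to 0.16), and none of the 3 passed where 50.8% of genes did. The contrast of antibody and deletion in the ratio of Fcgr4 to Fcgr2b was 1.119 (SE 0.38, 95% interval 0.36 to 1.88, adjusted p = 0.155). No gene passed in that fit (percent called 0 of 16403 in limma), and 16.8% had an unadjusted p under 0.05.

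The ratio of the shared chain to the summed receptors that need it was lower in treated tumors. The sum includes Fcgr4, so the ratio is not separate from the rise of Fcgr4. On day 15 PD-1 Ab means over isotype control means were 4.72 for Fcgr4, 2.68 for Fcgr1, 2.64 for Fcgr3 and 2.19 for Fcer1g. The ratio of Fcer1g to the sum of Fcgr1, Fcgr3 and Fcgr4 was 1.497, 1.23, 1.87, 1.17 and 1.64 in isotype control tumors of day 15 and 1.07, 0.893, 0.957, 0.914 and 1.13 in PD-1 Ab-treated tumors, each below every control. On day 11 it was 1.24 ± 0.112 under isotype control and 0.958 ± 0.0721 under PD-1 Ab (SD, n = 5), with 4 of 5 treated tumors below every control. In the PD-1cKO study it was 0.379 ± 0.125 in WT tumors and 0.296 ± 0.103 in tumors labelled PD-1cKO (SD, n = 10), 5 of which lay below every WT tumor. These ratios were described and not tested, and the share of all genes with such a lack of overlap was not computed.

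**Figure D3:**
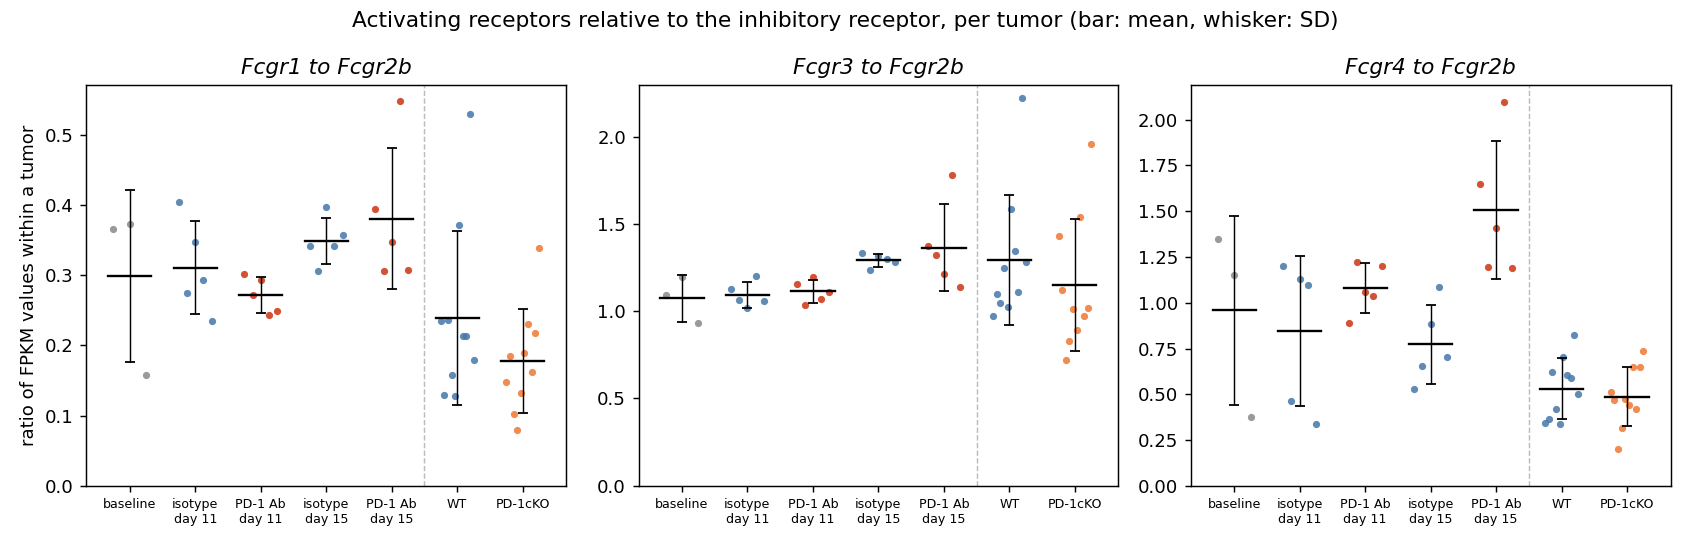
Ratio of the FPKM of Fcgr1, Fcgr3 and Fcgr4 to that of Fcgr2b in the same tumor on the y axis, by group on the x axis, with points for single tumors, bars for means and whiskers for SD. For Fcgr4 all 5 PD-1 Ab-treated tumors of day 15 (1.19 to 2.10) lie above the 5 isotype control tumors of day 15 (0.531 to 1.09), whereas the groups overlap for Fcgr1 and Fcgr3.

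The receptors were next taken relative to the macrophage genes Adgre1, Csf1r, Cd68, Mertk, C1qa, C1qb and C1qc, whose mean log2 value was subtracted in each tumor. On day 15 only Fcgr4 remained higher under PD-1 Ab (log2 difference 1.03, SE 0.23, limma adjusted p = 0.000618), where 73.4% of genes passed and 0.943% passed as higher. The other 5 ran from -0.09 (Fcer1g) to 0.15 (Fcgr1), with SE of 0.18 to 0.22. With Ptprc, a marker of all leukocytes, in place of the macrophage genes, Fcgr4 was at 0.85 and did not pass (adjusted p = 0.0913). On day 11 no member passed (0.00687% of genes did), and Fcgr4 stood at 0.64 (SE 0.36, adjusted p = 0.145).

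Relative to macrophage genes, 3 of the 6 members were lower in tumors labelled PD-1cKO. Fcer1g was at -0.97 (SE 0.27, adjusted p = 0.00214), Fcgr1 at -0.78 (SE 0.25, adjusted p = 0.00681) and Fcgr3 at -0.57 (SE 0.18, adjusted p = 0.00627), all of which passed. A larger share of all genes tested did so, as 77.5% passed and 77.0% passed as lower, and these calls do not set the members apart. Fcgr4 at -0.53 (adjusted p = 0.0220) and Fcgr2b at -0.38 (adjusted p = 0.0797) did not pass, and Fcgrt was at 0.03 (SE 0.17, 95% interval -0.31 to 0.38). Leaving out PD-1cKO replicate 4, 5 or 8 or WT replicate 9 left 1 of the 3 calls, and with Ptprc or with the run as a covariate none of the 6 passed. With Ptprc the differences of Fcgr3, Fcgr4 and Fcgr2b turned to 0.012, 0.055 and 0.20.

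A list of 15 genes was taken for the signal of the activating receptors. Membership of the list does not show that a gene serves an Fc receptor in these tumors. On day 15, 12 of these 15 genes rose under PD-1 Ab, where 6.69% of all genes tested passed as higher. Their median log2 difference was 1.36 against -0.04 over all genes. T cell and macrophage markers rose in the same tumors, and the part of these cells in the changes was not tested. Pik3r5 and Pik3cd, subunits of phosphoinositide 3-kinases, rose by 1.58 and 1.44 (adjusted p = 0.00147 and 0.00134, limma), and Rac2, a GTPase of the phagocyte oxidase, by 1.43 (adjusted p = 0.00252). Smaller changes that passed were those of the Src-family kinase Lyn (0.99, adjusted p = 0.00171) and of the adaptor Lat2 (0.95, adjusted p = 0.00481). Plcg2, Vav3 and Card9 did not pass. On day 11 none of the 15 passed, and no gene of the 14556 tested did. Their median was 0.62, in a comparison where the median over all genes without further scaling also lay above 0.

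In the PD-1cKO study 10 of the 15 rose, where 8.78% of all genes tested passed as higher. Their median log2 difference was 0.79 against -0.20 over all genes, and the part of cell types was not tested. The largest were Pik3r5 (1.28, adjusted p = 0.00122), Rac2 (1.11, adjusted p = 0.00158) and Syk (1.08, adjusted p = 0.00133), the kinase that docks on Fcer1g. The smallest that passed were Vav1 (0.71, adjusted p = 0.00188), Lcp2 (0.72, adjusted p = 0.00388) and Ncf1 (0.79, adjusted p = 0.00158). Thus Syk and other genes of this list were higher in tumors labelled PD-1cKO while Fcer1g was at 0.05. None of the 15 passed in the contrast between the models, where only 0.0975% of all genes tested did.

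On the inhibitory side, 2 of 6 genes, the phosphatases Inpp5d and Ptpn6, rose in both comparisons. Among all genes tested, 6.69% passed as higher on day 15 and 8.78% in the PD-1cKO study. Inpp5d (SHIP1), which Fcgr2b recruits, rose by 1.25 under PD-1 Ab on day 15 (adjusted p = 0.00219) and by 0.63 in tumors labelled PD-1cKO (adjusted p = 0.00260). Ptpn6 (SHP-1) rose by 1.22 (adjusted p = 0.00136) and by 0.67 (adjusted p = 0.00978). The related phosphatases Inppl1 and Ptpn11 and the adaptors Dok1 and Dok2 did not pass in either, and the median of the 6 was 0.32 and 0.41.

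Of 8 genes of the interferon gamma response, all 8 rose under PD-1 Ab on day 15, with a median of 1.72, among them Ifng itself (2.52, adjusted p = 0.00106), Ciita (2.22, adjusted p = 0.00136) and Gbp2 (1.88, adjusted p = 0.00101) at the top and Cxcl9 (1.56, adjusted p = 0.00185), Cxcl10 (1.09, adjusted p = 0.00601) and Irf1 (0.62, adjusted p = 0.00349) at the bottom. In the PD-1cKO study 3 of 8 rose, Irf8 (1.06, adjusted p = 0.000414), Ifng (1.02, adjusted p = 0.00692) and Ciita (0.73, adjusted p = 0.00145), with a median of 0.14. The contrast between the models had none of the 8 past the limit, with a median of 1.499, where only 0.0975% of all genes tested passed. Among all genes tested, 6.69% passed as higher on day 15 and 8.78% in the PD-1cKO study.

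The genes of the IgG heavy chains, whose products the receptors bind, did not pass in either comparison. Ighg1, Ighg2b, Ighg2c and Ighg3 ranged in mean from 0.0760 to 1.81 FPKM in isotype control tumors of day 15 and from 1.17 to 6.55 FPKM in PD-1 Ab-treated tumors, with wide spread between tumors. Ighg3 had a log2 difference of 2.56 (SE 0.65, adjusted p = 0.0168). These values give immunoglobulin RNA made in the tumor and not the injected antibody.

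Of 12 other Fc receptor genes 7 could be tested on day 15, where 6.69% of all genes tested passed as higher. Among these 7, 3 rose. They were Fcer1a, the binding chain of the IgE receptor that uses Fcer1g (2.47, adjusted p = 0.00557), Fcrlb (1.121, adjusted p = 0.00534) and Trim21, a receptor for antibody inside cells (0.91, adjusted p = 0.00416). Mast cell and basophil markers moved in the same tumors, with all 3 that could be tested higher and sums of 2.36 to 4.57 FPKM under isotype control and 5.92 to 26.4 FPKM under PD-1 Ab. Their part in the levels of Fcer1g was not tested. In the PD-1cKO study none of 5 tested passed. B2m, the partner of Fcgrt, had a log2 difference of 0.41 on day 15 (SE 0.13, adjusted p = 0.0439) and -0.26 in the PD-1cKO study (SE 0.15, adjusted p = 0.153), and passed in neither.

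The members did not all vary alike among tumors of a group. For this, each tumor's deviation from its group mean of log2 values was taken over the 43 tumors after median-of-ratios scaling, and correlated over 13215 genes whose mean reached 1 FPKM. Tumors share libraries of 2 studies, so the correlations are given as a description. Fcgr4 was most like the T cell genes Pdcd1 (Pearson r 0.89, Spearman rho 0.91, r without the 2 farthest tumors 0.84), Cd8a (0.87, rho 0.89) and Cd3g (0.87, rho 0.89). Fcgr3 was most like the macrophage gene Adgre1 (0.84, rho 0.84) and Pygl (0.84). Fcgr2b was most like the chemokine Ccl8 (0.84, rho 0.79), Acss1 (0.84) and Adam8 (0.83).

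Fcgr1 was most like F11r (r 0.82, rho 0.85), Gm49342 (0.81) and Lst1 (0.79), and Fcer1g also had Lst1 at the top (0.81, rho 0.76), before Lyn (0.77) and Rhog (0.75). Fcgrt had the closest neighbours of all, the adaptor Dok2 (0.93, rho 0.89), Hfe (0.91) and Gsn (0.91). Pdcd1 is the gene altered in the PD-1cKO mice, and within the 20 tumors of that study its r with Fcgr4 was 0.64.

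Within the 23 tumors of the antibody study Fcgr1 and Fcer1g had an r of 0.95 (rho 0.92, 0.92 without the 2 farthest), and Fcgr4 and Cd8a an r of 0.95 (rho 0.92, 0.92 without the 2 farthest). Fcgr3 and Fcgr2b were at 0.88 (rho 0.88, 0.80 without the 2 farthest). In the 20 tumors of the PD-1cKO study the same pairs were at 0.20 (rho 0.17, -0.19 without the 2 farthest), 0.63 (rho 0.66, 0.56) and 0.55 (rho 0.56, 0.39). The relation of Fcgr1 and Fcer1g there rests on those 2 tumors.

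Fcgrt went with macrophage genes in the PD-1cKO study, with an r of 0.92 to Csf1r (rho 0.92, 0.90 without the 2 farthest) and 0.90 to Adgre1 (rho 0.85, 0.87). In the antibody study these were 0.66 (rho 0.54, 0.40) and 0.48 (rho 0.37, 0.08). Fcer1g had an r of 0.01 to Csf1r in the PD-1cKO study (rho 0.01) and 0.56 in the antibody study (rho 0.48, 0.25 without the 2 farthest). The differences between the studies were not tested.

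**Figure D4:**
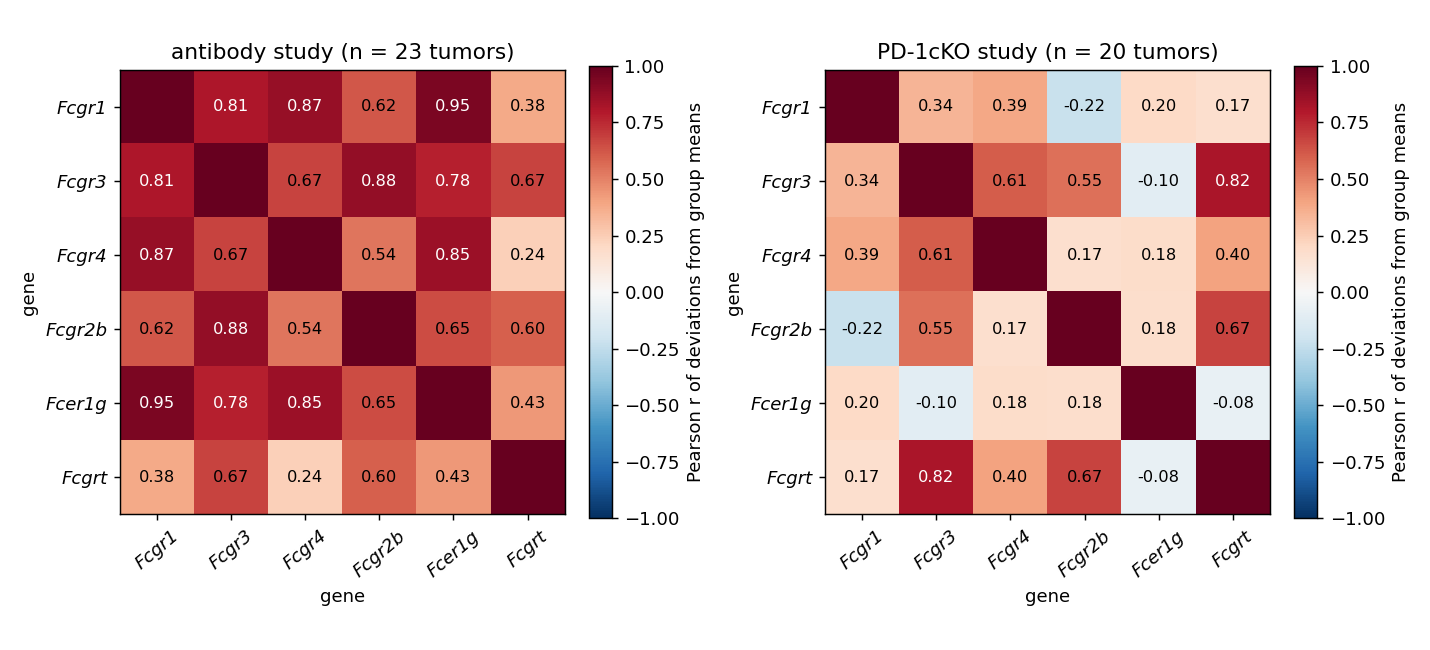
Pearson r between each pair of the 6 genes (both axes), over deviations of tumors from their group means, for the 23 tumors of the antibody study (left) and the 20 tumors of the PD-1cKO study (right), with color and printed number giving r. The pair Fcgr1 and Fcer1g is at 0.95 on the left and 0.20 on the right, and Fcgr3 and Fcgrt at 0.67 and 0.82.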

How the data were processed

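RNA of bulk samples was sequenced by the authors with a stranded, ribosomal RNA-depleted kit as paired reads of 50 bases, aligned with OSA in Array Studio to Mouse.B38 with Ensembl.R86 gene models, and deposited as 1 table of FPKM. The authors' own tests used counts and DESeq2. Counts were not used here, so limma replaced that test. The depth of each sample cannot be read from FPKM, and the authors give only a range of mapped reads over all samples.

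Groups came from the labels. Log2(FPKM + 0.1) was fitted with limma 3.58.1 (R 4.3.3; lmFit, eBayes with a trend) over every gene whose mean reached 0.5 FPKM in 1 or both groups, with Benjamini-Hochberg adjustment over these genes. A gene passed at an adjusted p under 0.01. For ratios, the log2 value of Fcgr2b, or the mean of 7 macrophage genes, was subtracted per sample before the fit. Tables and figures used Python 3.11.15, numpy 2.4.6, pandas 2.3.3 and matplotlib 3.10.9. Scripts were tested on simulated data.

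The members and gene lists were chosen with earlier results of these data known. Named were all 6 members, of each list the genes that passed with at most the 3 highest and 3 lowest changes, markers that moved with a result, the 3 genes most correlated with each member, and Pdcd1, except that some genes that this rule names are not reported here. Inppl1, Ptpn11, Dok1, Dok2, Plcg2, Vav3, Card9, Mertk, Ccr2 and Ighg3 were named after their values were seen. Alternatives were the added value, the filter, scaling, trend, array weights, replicate block, all groups in 1 fit, and each replicate left out. For PD-1cKO against WT the runs of sample identifiers were also a covariate, and the same for the difference between the models was added after seeing the data.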

Additional observations from a re-analysis of the deposited data

Results flagged for a closer look

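Of 36 groups of gene values examined for a single sample far from the rest, 4 held one, where chance gives about 1 in 20. In PD-1 Ab replicate 5 of day 15, Fcgr1 was at 24.7 FPKM against 42.7 to 51.0 in the other 4 tumors, Fcgr4 was at 95.5 FPKM against 178 to 207, and Fcer1g was at 239 FPKM against 367 to 417. These 3 values come from 1 tumor. In isotype control replicate 1 of day 11, the library with the high mitochondrial share, Fcgr2b was at 22.6 FPKM against 49.8 to 61.6 in the other 4 tumors. In a test of the difference itself, the change of Fcgr4 under PD-1 Ab on day 15 exceeded its change in tumors labelled PD-1cKO. The difference was 1.78 on the log2 scale (limma, adjusted p = 0.00233). It did not pass under upper-quartile scaling, with the replicate block, with all tumor groups in 1 fit or with runs as a covariate. Nor did it pass without PD-1 Ab replicate 3 of day 15. Study, day and library makeup cannot be told apart from antibody against deletion.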

How the results depend on the processing

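Of 1845 values of 80 results under other settings, 1678 kept direction and side of the threshold, 72 lost and 18 gained the call, 39 counts or values moved and 38 changed sign. The cause of these changes was not tested. The depth of each sample is unknown, so precision rests on 3 to 10 samples a group.

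On day 15 the count of 6 members that passed was 3 with the replicate block, 4 without a filter (Fcer1g and Fcgrt lost, adjusted p = 0.0109 and 0.0241), 5 with median-of-ratios or upper-quartile scaling, without a trend or with all groups in 1 fit (Fcgrt lost, 0.0115, 0.0129, 0.0160 and 0.0161), and 4 to 6 with 1 tumor left out. For PD-1cKO against WT the count of 2 was 1 without a filter, without a trend, with array weights and with the replicate block, 4 with median-of-ratios or upper-quartile scaling, 0 with runs as a covariate and 1 to 3 with 1 tumor left out. For the difference between the models the count of 1 was 0 with upper-quartile scaling, the replicate block, all tumor groups in 1 fit or runs, 5 with array weights, and 0 to 2 with 1 tumor left out (0 without PD-1 Ab replicate 3 of day 15, 2 without replicate 5). With array weights, 1 member passed for baseline (Fcgrt, -0.74) and 1 ratio in the difference (Fcgr4, 1.08). Relative to macrophage genes, Ptprc in their place gave 0 on day 15 and 0 for PD-1cKO, where runs gave 0 and left-out tumors 1 to 4. The median r of the most alike genes was 0.840, and 0.776 in the PD-1cKO study only.

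Values near 0 changed sign. With runs, Fcer1g for PD-1cKO was -0.038, Fcgrt in the difference -0.0019, and Fcgr4 relative to Fcgr2b 0.039, the latter also 0.044 with array weights. Fcgrt in the difference was -0.067 with median-of-ratios and -0.12 with upper-quartile scaling. At baseline, Fcgr4 was -0.00056 with upper-quartile scaling, Fcgr2b 0.026 with the replicate block and Fcer1g 0.084 with array weights. On day 11 array weights gave -0.030 for Fcgr3 relative to Fcgr2b, and 0.12 for Fcgr1 and 0.041 for Fcer1g relative to macrophage genes. With Ptprc, day 15 gave -0.034 for Fcgr1, -0.064 for Fcgr3 and -0.13 for Fcgr2b, and PD-1cKO gave 0.012 for Fcgr3, 0.055 for Fcgr4 and 0.20 for Fcgr2b.

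With 1 tumor left out, Fcer1g for PD-1cKO ran from -0.018 to 0.15 and Fcgrt in the difference from -0.0017 to 0.41. At baseline Fcgr1 ran from -0.68 to 0.053, Fcgr4 from -0.35 to 0.70 and Fcer1g from -0.52 to 0.069. Relative to Fcgr2b on day 15, Fcgr1 ran from -0.047 to 0.16 and Fcgr3 from -0.038 to 0.12. Relative to macrophage genes, Fcgr2b ran from -0.0060 to 0.18, Fcer1g from -0.15 to 0.014 and Fcgrt from -0.14 to 0.061 on day 15, Fcgr1 from -0.14 to 0.18 and Fcer1g from -0.17 to 0.12 on day 11, and Fcgrt from -0.010 to 0.10 for PD-1cKO.

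The replicate numbers do not pair the samples, since correlations of same-numbered deviations ran from -0.21 to 0.04 on day 15 and from -0.19 to 0.11 for PD-1cKO. With the block, Fcgr2b, Fcer1g and Fcgrt on day 15 had adjusted p of 0.0103, 0.0159 and 0.0210.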

Other observations

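The 2 studies gave different levels of FcRn and its partner in their control tumors, set side by side with no test. B2m had means of 2390 and 2790 FPKM in the isotype control groups and 1022 FPKM in WT tumors of the PD-1cKO study, while Fcgrt had means of 12.8 and 19.96 against 38.3 FPKM. Fcer1g was at 131 and 167 against 51.6 FPKM. Study, day and library makeup cannot be told apart.

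The ratio of Fcgr4 to Fcgr3, the activating receptors that neighbour each other on chromosome 1, was 0.598 ± 0.164 under isotype control and 1.10 ± 0.124 under PD-1 Ab on day 15 (SD, n = 5), with no overlap. It was 0.413 ± 0.0912 in WT tumors and 0.426 ± 0.0954 in tumors labelled PD-1cKO (SD, n = 10), which overlapped. The share of all genes with such ratios was not computed.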
